A study of Mus musculus with 24 samples.

Results

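Cytosolic ribosomal protein genes encode the proteins of the large (Rpl) and small (Rps) subunits of the ribosome in the cytoplasm. A gene was taken as a member when a probe set carried its symbol alone and that symbol began with Rpl or Rps and a digit, or was Rplp0, Rplp1, Rplp2 or Rpsa; the S6 kinases (Rps6k) were left out. This gave 35 of the 8251 genes with a probe set of their own, 17 of the large and 18 of the small subunit. RefSeq lists 34 of them as protein coding and Rps4l as a transcribed pseudogene. Each gene stands for its brightest probe set by mean signal over all arrays. Rpl5, Rpl10, Rpl11, Rpl23, Rplp1, Rplp2 and Rps6 were not among the members. A further 38 probe sets carried a ribosomal protein symbol together with other symbols and were counted only as a group.

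The study set 11 cell lines derived from lung tumours of 8-month-old mice carrying both a c-Myc and a c-Raf transgene against alveolar type II epithelial cells from healthy mice without the transgenes. The labels give neither the transgenes' promoter nor an age for the control animals. The lines A2C12, B3, cRAF_cMYC, gammaA7 and gammaB8 had 3 arrays each, A2B1 had 2, betaD5, betaD10, gammaA3, gammaD1 and gammaD12 had 1 each, and the control had 2, called control 1 (labelled AT) and control 2 (labelled AT2). The lines had been kept in serum-containing medium for up to 50 weekly passages and the control cells came from the lung, so transformation and culture cannot be told apart, and neither the labels of the repeat arrays nor those of the controls name separate cultures or animals, so p-values measure only the spread between these samples.

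A ribosome needs 1 copy of nearly every one of these proteins, and their genes are therefore usually transcribed together. The mRNAs start with a run of pyrimidines, the 5′ terminal oligopyrimidine (TOP) tract, through which mTOR signalling and the repressor Larp1 control their translation. Myc is known to raise transcription of ribosomal protein genes, of ribosome assembly factors and of ribosomal RNA, and Raf acts through ERK on some of the same steps. Surfactant-secreting type II cells of the adult lung seldom divide.

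The promoters show the letters that the members share. RefSeq promoters of 300 bases (250 before and 50 after an annotated start, build GRCm38.p6) were matched by symbol for 28 of the 35 members. The windows that follow run from 60 bases before to 20 bases after the start, on the strand of the gene. Capitals mark ACTTCCG or its reverse complement CGGAAGT (the core bound by ETS factors), CACGTG (the E-box bound by Myc and Max), and CTTTCC (a pyrimidine stretch). The first 4 belong to members that were higher in the tumour lines, Rpl37a to a member with as many ETS cores as Rpl41 but no called difference, and Rps27 to a member that was lower.
Rpl19, chr11:98026650-98026729, plus strand, the upstream of its 2 starts: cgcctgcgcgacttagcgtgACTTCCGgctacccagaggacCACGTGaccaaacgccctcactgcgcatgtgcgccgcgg
Rpl41, chr10:128549149-128549228, minus strand: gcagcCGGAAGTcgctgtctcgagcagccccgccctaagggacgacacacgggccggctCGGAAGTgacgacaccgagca
Rps18, chr17:33955646-33955725, minus strand: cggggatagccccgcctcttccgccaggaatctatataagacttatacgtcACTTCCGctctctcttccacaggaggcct
Rpl13a, chr7:45128726-45128805, minus strand: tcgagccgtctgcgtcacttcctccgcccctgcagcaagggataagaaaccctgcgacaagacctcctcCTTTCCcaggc
Rpl37a, chr1:72711200-72711279, plus strand: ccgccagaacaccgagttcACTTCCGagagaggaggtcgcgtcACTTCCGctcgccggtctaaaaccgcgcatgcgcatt
Rps27, chr3:90213629-90213708, minus strand: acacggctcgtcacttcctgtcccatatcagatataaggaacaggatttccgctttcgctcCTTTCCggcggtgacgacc

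Over the whole 300 bases and both strands, ACTTCCG was found in 9 of the 28 members (32.1%), against 7.20% of all 27025 genes with a promoter entry. CTTTCC was found in 17 members (60.7%), against 29.3% of all genes, and AAGATGGC, the core bound by YY1, in 5 members (17.9%), against 3.19%. A run of at least 8 pyrimidines on the gene's strand within 50 bases of a start was found in 20 members (71.4%), against 39.3% of all genes; CTTTCC can lie inside such a run. CACGTG was found in 3 members (10.7%), Rpl13a, Rpl19 and Rps19, against 8.09% of all genes. A gene counted once however many starts it has, and a match is a description of the letters and not a measured binding site.

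The arrays report a signal per probe set, scaled by array to 1 trimmed mean, so a difference is relative to the rest of a sample's RNA and not per cell. Fewer cells of a type and less RNA per cell cannot be told apart. The control preparations held RNA of other cells: the summed signal of 10 myeloid markers was 132 to 387 on the 22 tumour arrays, against 42651 and 25555 on controls 1 and 2, and that of 10 lymphocyte markers was 97.8 to 270, against 1625 and 13268. The 5 type II markers on the array summed to 33.0 to 117 on tumour arrays, against 1381 and 27394. Of those 5 markers, 3 lay above the array median on control 1, 4 on control 2 and 0 on any tumour array, and of the myeloid markers 10 and 9 did so on controls 1 and 2. Of the 10 lymphocyte markers, 7 lay above the median on control 2 but only 2 on control 1. Those 2, Cd52 (803) and Coro1a (628), made up most of the lymphocyte sum of control 1. The 8 proliferation markers on the array summed to 4425 on A2B1 replicate 1 and to 12350 to 18434 on the other tumour arrays, against 2415 and 1244. These marker sums move with every comparison of lines and control below, and their part in the ribosomal protein differences was not tested.

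**Figure D1:**
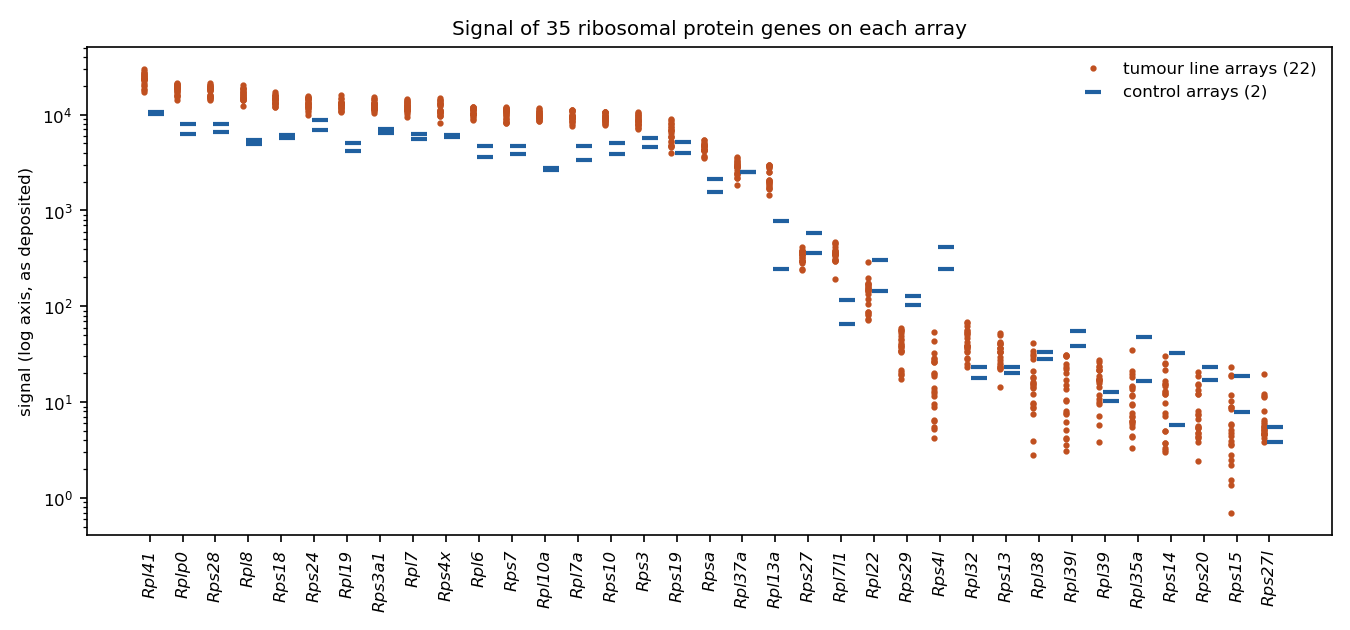
Signal of each of the 35 members on a log axis, ordered by mean signal, with the 22 tumour arrays (dots) to the left of the 2 control arrays (dashes). The bright members of both subunits lie higher on the tumour arrays, while the 9 members that were not tested stay below the array medians in every sample.

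Most of the measured ribosomal protein genes were higher in the tumour lines. Of the 35 members, 26 passed the filter (signal above the array's own median on at least 2 of the 24 arrays) and were tested: the 11 line means of log2(signal + 32) were set against the 2 control arrays in limma, with Benjamini-Hochberg adjustment over all 7670 tested probe sets. With an adjusted p below 0.05 and a difference of 2-fold or more, 16 of the 26 rose and 2 fell, where the background over all tested probe sets was 16.5% higher and 21.4% lower. Without the fold threshold, 20 rose and 3 fell, against backgrounds of 30% and 34.5%. The median log2 difference (lines minus control) was 1.17 over the 26 tested members and 0.79 over all 35, and it was -0.05 over all tested probe sets. The filter kept 4 members through some of the arrays only (Rpl7l1, Rps29, Rpl32 and Rps4l), and the other 22 lay above the median on all 24 arrays. Rpl32 passed on tumour arrays only and Rps4l on control arrays only. Rps29 passed on both controls and on 1 tumour array, which alone would not have met the filter. Rpl7l1 passed on the 22 tumour arrays and on control 1, which alone would not have met the filter. The calls of these 4 members, which include both falls by at least 2-fold, therefore support nothing. Over the 22 measured on all arrays, the median was 1.25, with 15 higher by at least 2-fold and 0 lower, and 18 higher and 1 lower at any fold.

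These differences depend on how arrays are scaled. Quantile normalization, which gives every array the same distribution of signals, left 3 of the 26 members higher by at least 2-fold (Rpl13a, Rpl10a and Rpl7l1), where the background was 21.8%, so the members' share lay below that of all tested probe sets. The members' median log2 difference was then 0.39, and that of all tested probe sets was 0.18. By the 98th percentile of signal, 2969 to 3457 on tumour arrays against 2673 and 2350 on controls 1 and 2, the deposited scaling leaves the bright end of the tumour arrays higher. Without the fold threshold, 15 of 26 members were higher after quantile normalization, against a background of 37.7%, and Rpl7, Rps3, Rps3a1, Rps4x and Rps24 no longer passed. Subtracting each array's median instead moved the members' median to 1.70 and that of all tested probe sets to 0.49.

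**Figure D2:**
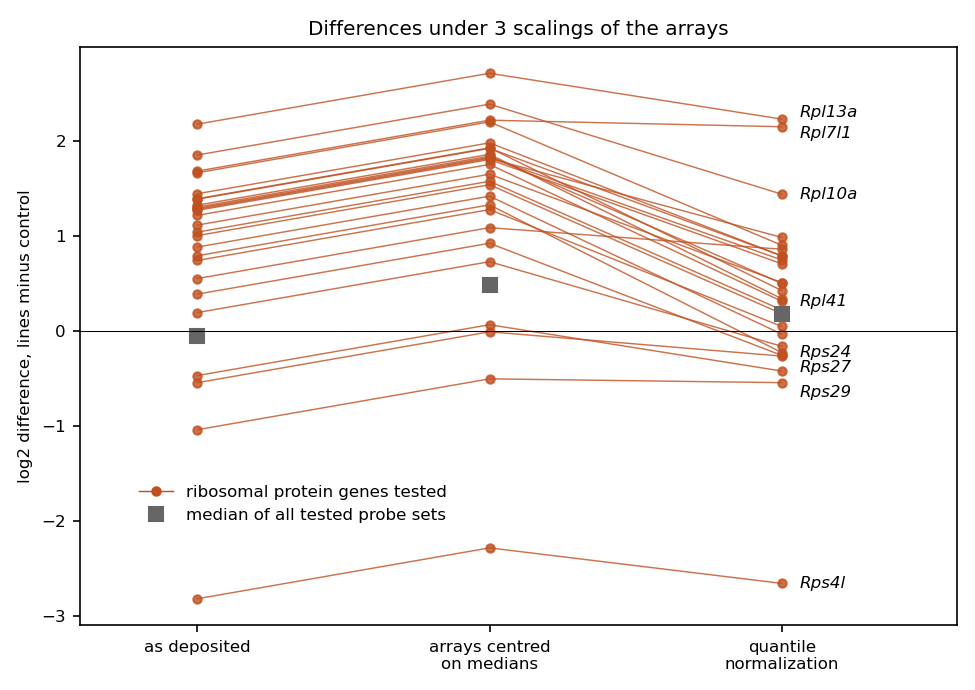
Log2 difference (lines minus control) of each of the 26 tested members under the deposited scaling, centring on array medians and quantile normalization; lines join a member's values and grey squares are the median of all tested probe sets. Centring shifts every member up together, while quantile normalization brings most members closer to 0, with Rpl13a, Rpl10a and Rpl7l1 above 1.

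In the large subunit, 10 of 13 tested members rose by at least 2-fold, 11 rose at any fold and 0 fell, with a median log2 difference of 1.39; of the 11 measured on all arrays, 9 rose by at least 2-fold. Rpl13a, which is also known to join a complex that silences inflammatory mRNAs in myeloid cells, had the largest difference. Its signal was 1460, 2044 and 3006 on the tumour arrays (lowest, median, highest), against 782 and 244 on controls 1 and 2. All 22 tumour arrays lay above both controls, and the log2 difference was 2.18 (SE 0.31, limma adjusted p = 1.83e-05), or 4.53-fold. The controls lay far apart for this gene: the difference was 1.40 against control 1 alone and 2.96 against control 2 alone.

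Rpl10a, a protein of the mobile L1 stalk beside the exit site for tRNA, gave 8503, 9858 and 11619 on the tumour arrays (lowest, median, highest), against 2674 and 2796 on controls 1 and 2. The tumour arrays did not overlap the controls, which differed little from each other, and the log2 difference was 1.85 (SE 0.13, limma adjusted p = 1.31e-08). A second Rpl10a probe set also rose, by 1.03. Rpl8, whose protein lies close to the peptidyl transferase centre, gave 12245, 15986 and 20360 on tumour arrays, against 5396 and 4976 on controls (log2 difference 1.67, SE 0.14, limma adjusted p = 8.8e-08). Rpl19, which helps bridge the subunits, gave 10724, 12854 and 16079 on tumour arrays, against 5118 and 4153 on controls (1.45, SE 0.14, limma adjusted p = 3.93e-07). In both genes the lowest tumour array lay above the higher control by more than the gap between the controls. A second Rpl19 probe set, below the array median on all 24 arrays and so not tested, gave -0.82.

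Rplp0 forms the base of the P stalk, the lateral arm that recruits elongation factors. It gave 14105, 18802 and 21639 on the tumour arrays, against 8000 and 6352 on controls 1 and 2, a log2 difference of 1.39 (SE 0.15, limma adjusted p = 1.01e-06). Rpl41, the shortest and most basic of the ribosomal proteins, gave 17419, 23712 and 29795 on the tumour arrays, against 10071 and 10600 on controls 1 and 2 (1.22, SE 0.15, limma adjusted p = 5.45e-06). The Rpl41 probe set was the brightest of all on each of the 22 tumour arrays, and it ranked 5 and 2 on controls 1 and 2; brightness also depends on the probes, so the ranks compare arrays and not genes. Rpl6, Rpl7a and Rpl7 rose by 1.39, 1.29 and 1.04 on the log2 scale.

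The remaining tested large-subunit members were dimmer or did not pass the test. Rpl37a, a zinc-finger protein, gave 1839, 2861 and 3582 on tumour arrays, against 2493 and 2510 on controls, so the groups overlapped (log2 difference 0.20, SE 0.18, limma adjusted p = 0.339), and the difference passed the test only after centring on array medians, at 0.73. Rpl22, which ribosomes can do without and which acts as a tumour suppressor in T-cell lymphoma of mice, gave 71.6, 146 and 291 on tumour arrays, against 143 and 307 on controls (-0.54, SE 0.29, limma adjusted p = 0.110). The Rpl22 controls spanned most of the tumour range: the difference was -0.06 against control 1 alone and -1.02 against control 2 alone, where it passed the test with an adjusted p of 0.0237. A second, dimmer Rpl22 probe set gave -1.30, with all 11 line means below both controls (115 and 124). It passed the filter on the 2 control arrays alone, so its direction was set by the filter. Rpl32 lay 0.55 higher in a probe set that was dim in all samples and passed the filter on 2 tumour arrays alone, so that its direction was set by the filter. It averaged 46.2 ± 11.0 in the lines (SD, n = 11), with 23.2 and 17.8 on controls 1 and 2; against control 1 alone the difference was 0.48 and did not pass.

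In the small subunit, 6 of 13 tested members rose by at least 2-fold, 9 rose at any fold and 3 fell, with a median log2 difference of 0.89. Of the 11 measured on all arrays, 6 rose by at least 2-fold, 9 rose at any fold and 1 fell, with a median of 1.01. Rps4l and Rps29, which also fell, were tested only through the controls. For both subunits the background was 16.5% higher and 21.4% lower by at least 2-fold. Whether the subunits differ was not tested. Rps28, a small protein at the mRNA exit channel, gave 14043, 18063 and 21554 on tumour arrays, against 7933 and 6526 on controls (log2 difference 1.33, SE 0.14, limma adjusted p = 1.44e-06). Its other probe sets also lay higher, by 0.99 and 0.56, both short of 2-fold, so the call at 2-fold rests on the brightest probe set. Rps18, a protein of the subunit's head, gave 12036, 14384 and 17109 on tumour arrays, against 6057 and 5737 on controls (1.31, SE 0.13, limma adjusted p = 6.55e-07). Rpsa, also known as the laminin receptor, gave 3498, 4485 and 5405 on tumour arrays, against 2114 and 1572 on controls (1.28, SE 0.16, limma adjusted p = 5.81e-06). For each of these 3 genes, no tumour array fell to the level of a control. Rps7, Rps10 and Rps4x rose by 1.27, 1.12 and 1.01 on the log2 scale. Averaged with its 4 other probe sets, all too dim to test, Rps4x gave -0.22 and did not pass.

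Rps3a1, Rps24 and Rps3 rose by less than 2-fold. Rps3, which lines the mRNA entry channel and also cuts damaged DNA, averaged 8654 ± 739 in the lines (SD, n = 11), with 5670 and 4630 on controls 1 and 2 (log2 difference 0.74, SE 0.14, limma adjusted p = 0.000257). Rps24, mutated in some patients with the red-cell disorder Diamond-Blackfan anaemia, averaged 13694 ± 1504 in the lines, with 8864 and 6914 on the controls (0.79, SE 0.16, limma adjusted p = 0.000429). The signs of the Rps24 and Rps3a1 differences turned under quantile normalization, to -0.22 and -0.030, neither past the threshold. The Rps24 and Rpl7 probe sets were annotated from 1 shared sequence record, so the signals of these genes may not be separate, and a second Rps24 probe set was too dim to test. Rps19, the gene most often mutated in the same anaemia, gave 3935, 6571 and 9024 on tumour arrays, against 5174 and 3971 on controls, with overlapping groups (0.39, SE 0.22, limma adjusted p = 0.136); after centring on array medians it passed, at 0.93, and after quantile normalization it was -0.25.

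Of the 3 members that fell, all of the small subunit, 2 were measured above the array median mainly in the controls. Rps4l, the pseudogene resembling Rps4x, gave 4.26, 16.2 and 53.8 on tumour arrays, against 416 and 243 on controls, a log2 difference of -2.81 (SE 0.20, limma adjusted p = 1.28e-08). It passed the filter on the 2 control arrays alone and therefore had to differ. Its second probe set was below the array median on all 24 arrays. Rps29, a zinc-finger protein, gave 17.5, 38.4 and 58.7 on tumour arrays, against 104 and 129 on controls (-1.04, SE 0.17, limma adjusted p = 7.34e-05). It passed the filter on 3 arrays, the 2 controls and A2C12 unnumbered, so it too was tested only through the controls. A second Rps29 probe set, below the array median on all 24 arrays, gave -0.03. Rps27, also a zinc-finger protein, gave 239, 340 and 413 on tumour arrays, against 364 and 582 on controls (-0.47, SE 0.17, limma adjusted p = 0.0262). The highest tumour arrays overlapped control 1 for Rps27, its difference was -0.15 against control 1 alone, and after centring on array medians it was 0.069.

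Among the paralogues, Rpl7l1, a relative of Rpl7 that acts in ribosome assembly, gave 194, 351 and 474 on tumour arrays, against 116 and 64.8 on controls, and rose by 1.69 (SE 0.20, limma adjusted p = 3.16e-06). It lay below the array median on control 2 and met the filter only through the tumour arrays. Rpl39l, a paralogue of Rpl39 best known from male germ cells, gave 3.13, 12.2 and 31.4 on tumour arrays, against 55.3 and 38.3 on controls. Rps27l, a relative of Rps27 that p53 induces, gave 3.87, 5.42 and 19.8 on tumour arrays, against 5.45 and 3.83 on controls. Neither reached an array's median in any sample, so neither was tested. The same held for Rpl35a, another Diamond-Blackfan anaemia gene, at 11.2 ± 4.51 in the lines and 47.4 and 16.4 on controls, and for Rpl38, Rpl39, Rps13, Rps14, Rps15 and Rps20. The log2 differences of these 9 untested members ran from -0.75 (Rpl39l) to 0.28 (Rps13). Since proteins such as Rps14, Rps15 and Rps20 belong to every ribosome, such low signals describe these probe sets and give no level for the genes.

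**Figure D3:**
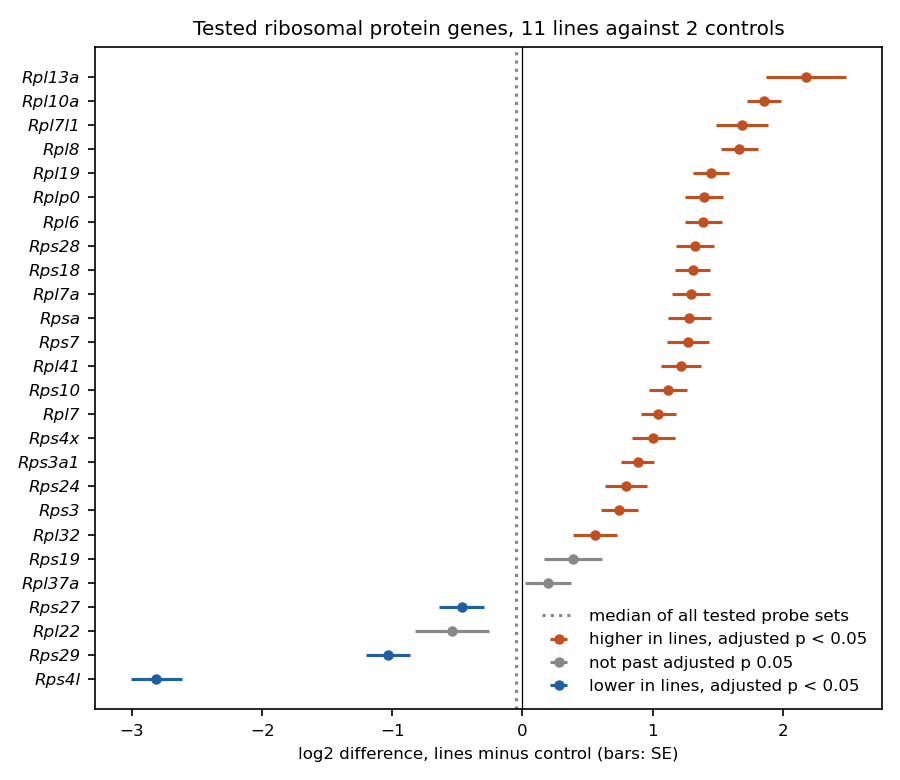
Log2 difference (lines minus control) of the 26 tested members with its SE as bars, sorted by size and coloured by the limma call at an adjusted p of 0.05; points right of 0 are higher in the tumour lines, and the dotted line is the median of all tested probe sets. Large-subunit members run from -0.54 (Rpl22) to 2.18 (Rpl13a) and small-subunit members from -2.81 (Rps4l) to 1.33 (Rps28).

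By array, the 22 members measured on every array took 4.24 to 5.18% of the summed signal of all probe sets on the tumour arrays, against 2.64 and 2.35% on controls 1 and 2. The lowest tumour share was thus above both controls, which were closer to each other than to any tumour array. The median rank of the 22 probe sets by brightness was 34.5 to 57.5 on tumour arrays, against 83.5 and 105 on controls, while 16 or 17 members on tumour arrays, and 16 and 15 on controls 1 and 2, were among the 124 brightest (1% of the array). On 18 of the 22, every tumour array lay above both controls. The share of all tested probe sets for which this held was not counted. For every line mean above both controls, a looser rule, that share was 25.4%. One array stood apart within its line: on A2B1 replicate 1 the signal of Myc was 85.8, while the line's unnumbered array gave 361. Myc gave 181 to 516 on the tumour arrays other than A2B1 replicate 1, against 283 and 79.8 on controls 1 and 2. On A2B1 replicate 1 the members' median log2 level was 13.50, against 13.45 on the other A2B1 array. Leaving A2B1 replicate 1 out kept 16 members higher by at least 2-fold with a median difference of 1.17.

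**Figure D4:**
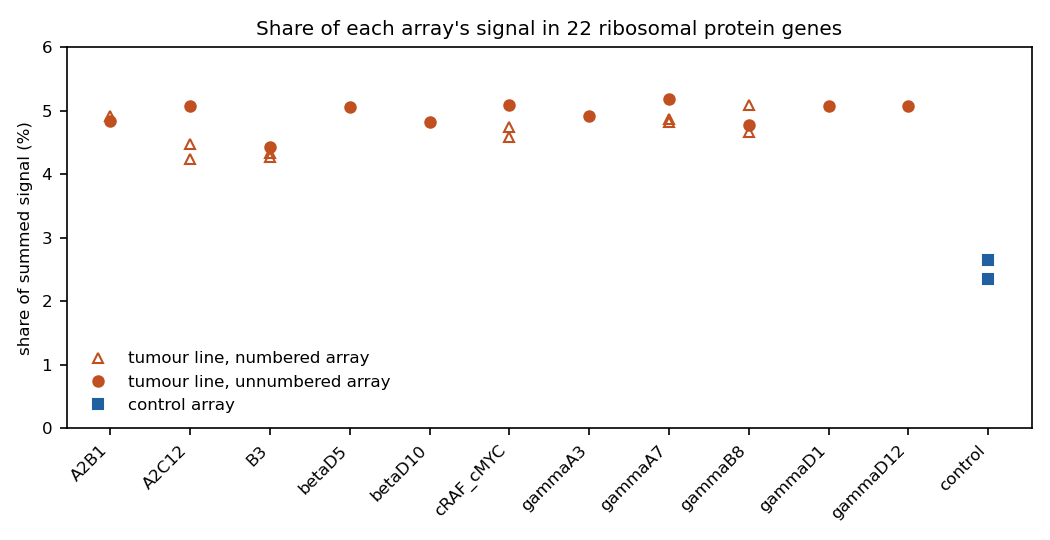
Share of the summed signal of all probe sets, in percent, taken by the 22 members measured on all arrays; each symbol is 1 array, with the tumour lines to the left of the control and open triangles for arrays numbered in their titles. Every tumour array lies between 4.24 and 5.18%, and controls 1 and 2 lie at 2.64 and 2.35%.

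No difference among the lines was called in these genes. In a moderated F-test over the 11 lines, 0 of 26 members passed an adjusted p of 0.05, where the background was 3.42%. None had an unadjusted p under 0.05 either, against 21.4% of all tested probe sets, and restricting the limma fit to the 6 lines with repeat arrays also gave 0 members, with 794 probe sets called in all. The median range of line means was 0.50 on the log2 scale for the members and 0.86 for all tested probe sets. It was 0.47 for the TOP and ribosome-associated genes, 0.49 for the elongation factors and 0.63 for the other probe sets with a mean signal over 4000. Median log2 levels of the 22 members ran from 13.23 to 13.50 over the lines (SD 0.09, n = 11). A test that finds no difference does not show that the lines are alike, and 5 of them rest on 1 array.

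The widest ranges were in Rpl22, from a signal of 71.6 in betaD5 to 221 in A2B1 (1.23 on the log2 scale; without A2B1 replicate 1, which gave 291 against 150 on the other A2B1 array, the range was 1.00 and gammaB8 was highest, at 176), and in Rpl13a and Rps19, each with a range of 0.94 and lowest in betaD10 and highest in gammaA7. Rpl13a ran from 1460 to 2847, and Rps19 from 3935 to 7714. Rpl38, not tested, had a range of 0.85 among very low signals. Rpl7l1 ran from 248 in A2B1 to 456 in gammaA3 (0.83, or 0.58 without A2B1 replicate 1, which gave 194 against 302). Rpl37a ran from 2076 in A2C12 to 3582 in gammaD1 (0.78). The smallest adjusted p among the members was 0.246 in the limma F-test, for Rpl37a.

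Each line was also set against the 2 controls, which all lines share. The median log2 difference of the 26 members was lowest in B3, at 0.86, where 11 members rose by at least 2-fold against a background of 17.4%. A2C12 came next, at 1.03, with 14 members against 18.1%. On the unnumbered arrays alone, 1 per line and a choice made after seeing the data, the median was 0.96 in B3 and 1.19 in A2C12, and it ran from 1.14 to 1.30 in the other lines. The 2 numbered A2C12 arrays lay lower than its unnumbered one by a median of 0.27 on the log2 scale over the 22 members, so the place of A2C12 rests on them. The same median, numbered minus unnumbered, was -0.18 in cRAF_cMYC, -0.14 in gammaA7, -0.04 in B3, -0.0006 in gammaB8 and 0.05 in A2B1. The 5 lines with 1 array have no numbered one, and line and kind of array are mixed in this order. In the other 9 lines the medians ran from 1.13 in gammaB8 to 1.30 in gammaD12. There, 16 members rose by at least 2-fold in A2B1 (background 13.6%), betaD10 (15.7%), cRAF_cMYC (16.9%), gammaA3 (16.6%), gammaA7 (16.7%) and gammaD12 (15.6%). In gammaB8 (16.9%) and gammaD1 (16.2%) 15 did, and in betaD5 (16.8%) 14 did. All 11 line means lay above both controls for 20 of 26 members, against a background of 25.4%, and below both for 2, against 29.7%. Those 2, Rps4l and Rps29, were tested only through their control signals, and Rpl32 and Rpl7l1, among the 20, only through tumour arrays.

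The members are among the brightest probe sets, so their differences were set beside those of other bright probe sets, with a threshold chosen after the values were seen. Of 18 members with a mean signal over 4000 across the 24 arrays, 14 rose by at least 2-fold, with a median log2 difference of 1.28. Of 135 other probe sets as bright and with no ribosomal protein symbol, 83 rose so far (61.5%), with a median of 1.18. A mean over 22 tumour and 2 control arrays favours probe sets that are higher in the lines. When the same threshold was set on the control mean, 12 of 16 members rose by at least 2-fold (75%, median 1.25), against 13 of 79 other probe sets (16.5%), of which 24 fell, with a median of -0.16. That choice favours probe sets that are higher in the controls. Across the 22 members measured on all arrays, which share the same arrays and scaling, the difference went with the mean log2 level at a Pearson correlation of 0.68 and a Spearman correlation of 0.42. The 22 tumour arrays enter both the level and the difference, so these quantities are not independent. Rpl22 and Rps27, the 2 dimmest of these members, were also the only ones with negative differences.

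**Figure D5:**
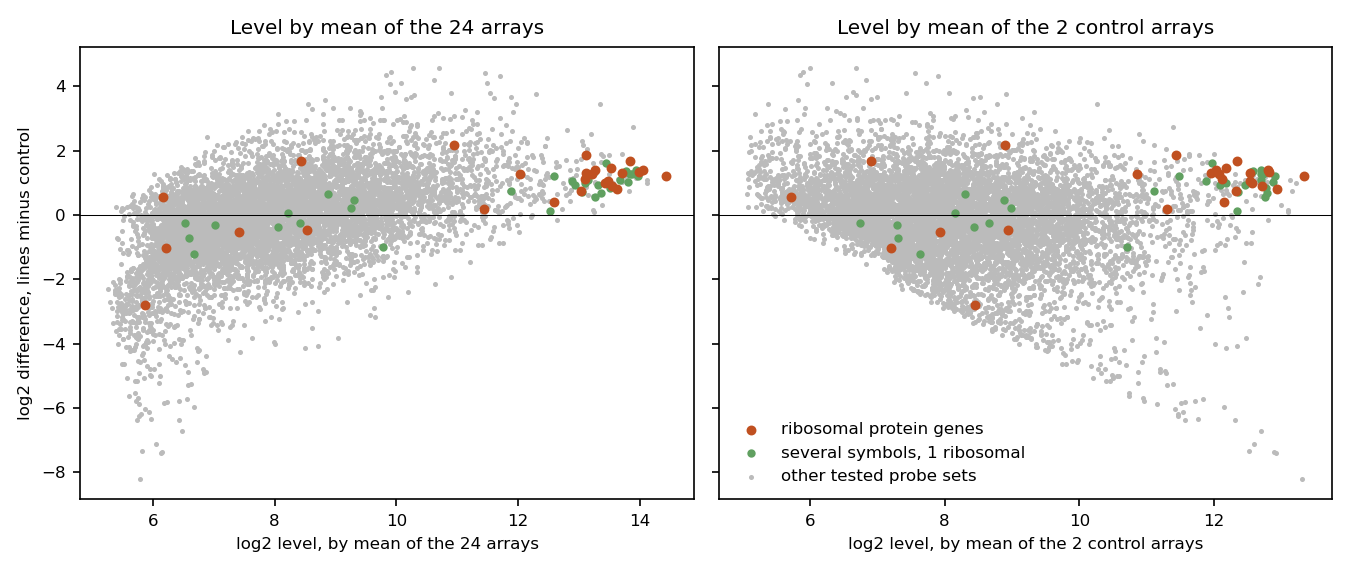
Log2 difference (lines minus control) against log2 level, taken as the mean of the 24 arrays (left) or of the 2 control arrays (right), for the members, the probe sets with several symbols and all other tested probe sets. On the left the 18 brightest members lie at 0.39 to 1.85 among other bright probe sets that are mostly above 0, while on the right many other bright probe sets lie below 0.

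Other parts of the translation apparatus were read from gene lists, beside the same backgrounds of 16.5% higher and 21.4% lower by at least 2-fold. At any fold the background was 30% higher and 34.5% lower. These lists were read under the deposited scaling only. Whether their counts hold after quantile normalization, which lowered those of the members, was not tested. Of 24 tested ribosome assembly genes, 19 rose by at least 2-fold and 0 fell, with a median log2 difference of 1.61. Nop56, a core protein of the box C/D particles that methylate ribosomal RNA, averaged 2256 ± 460 in the lines (SD, n = 11), with 402 and 146 on controls 1 and 2 (2.98, SE 0.32, limma adjusted p = 1.18e-06). Of 7 tested TOP and ribosome-associated genes (Btf3, Hnrnpa1, Naca, Nap1l1, Npm1, Pabpc1 and Tpt1), 4 rose by at least 2-fold, 7 at any fold and 0 fell, with a median of 1.11; Fau, a ubiquitin-like fusion of Rps30, was too dim to test. Pabpc1, which binds poly(A) tails, averaged 11682 ± 1215 in the lines, with 4034 and 2426 on the controls (1.88, SE 0.18, limma adjusted p = 3.09e-07).

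Of 58 tested mitochondrial ribosomal proteins, which serve the separate ribosome of mitochondria, 26 rose by at least 2-fold (44.8%, background 16.5%) and 2 fell, with a median of 0.94. Of 30 tested initiation factors, 10 were higher (33.3%) and 1 lower by at least 2-fold, with a median of 0.66. At any fold, 18 were higher and 3 lower. Of 5 tested elongation factors, 2 were higher and 0 lower by at least 2-fold, with a median of 0.70. At any fold, 3 were higher and 1 lower. Eef1a1 brings tRNA to the ribosome and is itself a TOP gene. It averaged 19129 ± 1277 in the lines, with 10321 and 8760 on the controls (1.00, SE 0.13, limma adjusted p = 8.44e-06). Of 6 tested kinases and repressors of translation, 0 passed both thresholds and the median was 0.01. Among these, the TOP repressor Larp1 rose by 0.43 (SE 0.16, limma adjusted p = 0.0257) and the kinase Mtor fell by 0.42 (SE 0.17, limma adjusted p = 0.0370). The probe sets with several symbols, one of them a ribosomal protein, had a median of 0.83 over the 33 tested. Of these, 14 were higher and 0 lower by at least 2-fold, and 23 were higher and 3 lower at any fold.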

How the data were processed

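The authors deposited linear intensity signals for each probe set, made with GCOS per the submitters' processing notes; version, background correction and detection rule were not given in the sources used here. Trimmed means (2% off either end) hardly differed between arrays, so arrays had been scaled to a common value. The 66 Affymetrix control probe sets were removed, leaving 12422. The platform annotation gave 1 symbol to 10833, several to 396 and none to 1193. No pair of arrays held identical values.

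Signals were transformed as log2(signal + 32), which compresses differences among low signals. A probe set was tested when brighter than the array median on 2 or more arrays. limma 3.58.1 (R 4.3.3) fitted the 11 line means against 2 control arrays (11 residual degrees of freedom), and 12 groups to 24 arrays (12 degrees of freedom) for the F-test and single lines. A line with 1 array is assumed to vary like the others. The number of arrays limits the precision. For gammaB8, 1 label reads gammaA8, and the sample title was followed.

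Members and lists were chosen with earlier results of these data known. Genes named with values were the 6 largest differences each way, paralogues, the 3 brightest, the 6 widest line ranges and genes with a named role; other members were given by count or range. Alternatives were other scalings, offsets, filters, probe-set choices and variance models, subsets of arrays and a replicate block. The fits were tested on simulated data.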

Additional observations from a re-analysis of the deposited data

How the results depend on the processing

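Of 668 values of single members recomputed, 651 kept their direction and side of the threshold, 7 lost the call, 4 gained it and 6 reversed. Quantile normalization gave 3 members higher and 1 lower by at least 2-fold, a median of 0.39 and a lowest line median of 0.30, and it reversed Rpl37a (-0.16), Rps19 (-0.25), Rps24 (-0.22) and Rps3a1 (-0.030). Centring arrays on their medians gave 1 lower, a median of 1.70 and a lowest line median of 1.44, and it reversed Rps27 (0.069); probe sets higher and lower by at least 2-fold numbered 2421 and 923 in all, against 1265 and 1638 as deposited and 1671 and 1370 after quantile normalization. Without a filter, which brings in 9 dim members, the median was 0.79, the lowest line median 0.61 and the members lower at any fold 6; requiring 12 arrays left 0 lower by 2-fold and 1 at any fold. An offset of 100 and dropping suffixed probe sets each left 1 lower by 2-fold. Averaging a gene's probe sets left 1 lower and a median of 0.92, and it reversed Rps4x (-0.22), whose 4 other probe sets are dim. Leaving out 1 control or line at a time gave 1 to 3 lower by 2-fold and a median of 1.01 to 1.24; without control 2 these were 1 and 1.01. The next alternatives were chosen after seeing the data: adding the probe sets with several symbols gave 30 of 59 higher by 2-fold, 43 higher and 6 lower at any fold and a median of 1.01, and keeping only the 22 members above the median on all arrays gave 0 lower by 2-fold and 1 at any fold. With a replicate block, 0 members passed the F-test and the lowest line median was 0.94. Deviations from the line means correlated at 0.06 to 0.70 between arrays of the same number, 0.17 to 0.54 between unnumbered arrays and -0.64 to 0.29 between others. The same-label medians were 0.16 for number 1, 0.12 for number 2 and 0.26 for unnumbered arrays, so many same-label pairs deviated together only weakly. The deviations of a line sum to 0, so the values between differently labelled arrays are tied to these and give no separate contrast. What the labels share was not tested. The causes of these changes were not tested beyond the construction of each alternative. Signals near the floor limit what the 9 untested members can show.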
